A study of Mus musculus with 451 samples.

Results

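The cells described here were the tail tendon cells on the Cd55 and Scara5 side of the dataset, called progenitor-like cells below. They numbered 84 of the 227 cells from wild-type (WT) mice and 78 of the 224 cells from mice lacking Mohawk homeobox (Mkx-/-), which are all cells of the series. All cells came from the tail tendons of C57BL/6 mice at 4 weeks of age, were freed from the tissue with collagenase I, were passed through a strainer and were captured one by one on a Fluidigm C1 chip. Neither genotype was treated, and the study compared them because tendons ossify in mice without Mkx and the cells involved were to be found. Animals and chips were not labelled, so each genotype counted as 1 sample, no test was run, and no genotype difference below has been checked on a replicate.

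Tendon is built by fibroblasts of the tenocyte lineage, which lay down type I collagen and carry the membrane protein tenomodulin (Tnmd) and the proteoglycan fibromodulin (Fmod). Around and between the collagen fascicles lie loose sheath tissues whose fibroblasts carry little of these products and more of the surface proteins Cd34, Ly6a (Sca-1) and Thy1, which in many connective tissues mark fibroblasts with progenitor properties. Cd55 is a surface inhibitor of complement and Scara5 a scavenger receptor that binds ferritin. Mkx is a homeobox transcription factor of the tendon lineage that supports collagen expression. Levels of transcripts do not show whether a cell can divide or differentiate, and the word progenitor-like refers here to markers alone.

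The cells were chosen by their own expression values. Counts were expressed in each cell as log2(CPM+1), where CPM is the count scaled to a fixed total per cell, and the 78 WT and 84 Mkx-/- cells in which the mean of Tnmd and Fmod reached 10 were set aside as tenocyte-like. In the others each gene was brought to mean 0 and unit spread, and the mean of Cd55, Scara5, Cd248, Emilin2 and Efemp1 minus the mean of Serpine2, Itm2a and Myoc gave a score. Progenitor-like cells had a score above 0, and the 65 WT and 62 Mkx-/- cells at or below 0 are called intermediate. These 10 genes selected the cells and their levels support nothing here.

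The cut ran through a continuous range of scores. The lowest scores inside it were 0.0021, 0.0060 and 0.0250, and the nearest scores outside were -0.000018, -0.010059 and -0.019658. The score lay under 0.25 in 29 progenitor-like cells and above -0.25 in 20 intermediate cells. The median score was 0.87 in WT and 0.68 in Mkx-/- progenitor-like cells, with highest scores of 2.20 and 2.19. For the mean of Tnmd and Fmod, the 3 cells just under the cut had 9.998, 9.992 and 9.058, the 2 cells just over it 10.083 and 10.270, and the highest progenitor-like cell lay at 8.10.

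**Figure D1:**
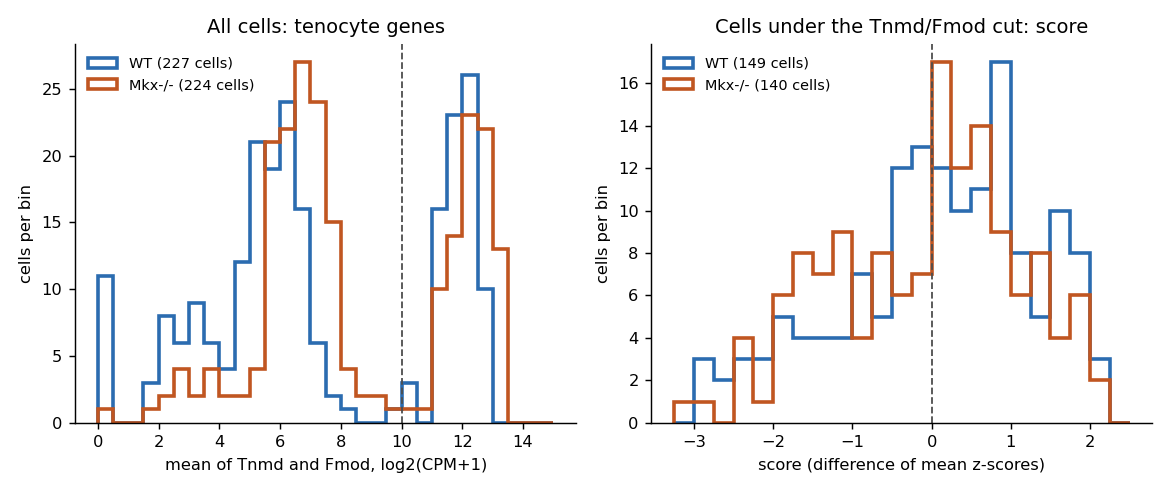
Number of cells per bin of the mean of Tnmd and Fmod in all cells (left, log2(CPM+1), bins of 0.5) and of the score in the cells under the cut of 10 (right, bins of 0.25), with WT in blue, Mkx-/- in orange and the cuts as dashed lines. Few cells lie around the cut on the left, whereas the score runs without a gap through 0, where 29 progenitor-like cells lay under 0.25.

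Progenitor-like cells made up 37.0% of WT cells (30.7 to 43.6, exact Clopper-Pearson interval at 95%) and 34.8% of Mkx-/- cells (28.6 to 41.5). The difference, Mkx-/- minus WT, was -2.18 percentage points with a Newcombe interval of -10.95 to 6.64. The share of such cells therefore could not be told apart between genotypes at this number of cells. Intervals in this text cover counting error only, because reads and not molecules were counted and animals were not identified.

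The WT progenitor-like cells held 4389389 reads and the Mkx-/- ones 3896770. A WT cell had a median of 49782.5 reads (17339 to 134656) and a Mkx-/- cell one of 47489.5 (14226 to 96277), and the median number of detected genes was 3020.5 and 3192. The score had a Spearman rho of 0.03 with reads per cell and -0.06 with genes per cell over these cells. Tenocyte-like cells were read more deeply, with medians of 81693 and 72897 reads, and intermediate cells less deeply, with 36441 and 45140, so shares of cells with a read are also given after every cell was thinned to 13000 reads.

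The label was checked on 5 markers that the score did not use, Cd34, Ly6a, the hyaluronan receptor Cd44, the secreted glycoprotein Fstl1 and the sheath protein Tppp3. All of them had their highest level in the progenitor-like cells of both genotypes. Cd34 stood at 1431 CPM in WT (1396 to 1467, exact Poisson interval) and 1274 in Mkx-/- progenitor-like cells, and at 915 and 722 in intermediate cells, and lay 2.98 and 2.56 above tenocyte-like cells on the log2 scale. Ly6a stood at 3252 and 3709 CPM against 555 and 762 in tenocyte-like cells, and Tppp3 at 586 and 637 against 70.8 and 117.6. Each class is a cut through the same cells, so these levels describe the class and are not a test of it.

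Every progenitor-like cell held reads of Ly6a, Cd44 and Fstl1, and nearly every one held reads of Cd34. Fstl1 was even among cells, running from 12.2 over a median of 14.02 to 14.9 on the log2(CPM+1) scale in WT cells and from 11.5 over 14.1 to 15.6 in Mkx-/- cells. Tppp3 was uneven, being read in 85.7% of WT cells (76.4 to 92.4) and 82.1% of Mkx-/- cells, from 0 over a median of 8.69 to 11.7 in WT. All 5 markers were found together in 83.3% of WT (73.6 to 90.6) and 79.5% of Mkx-/- progenitor-like cells (68.8 to 87.8). The same was true of 44.6% and 61.3% of intermediate cells and of 28.2% and 38.1% of tenocyte-like cells. At 13000 reads per cell the shares were 78.6% and 74.4%, 40.0% and 46.8%, and 14.1% and 23.8%, in the same order of classes.

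**Figure D2:**
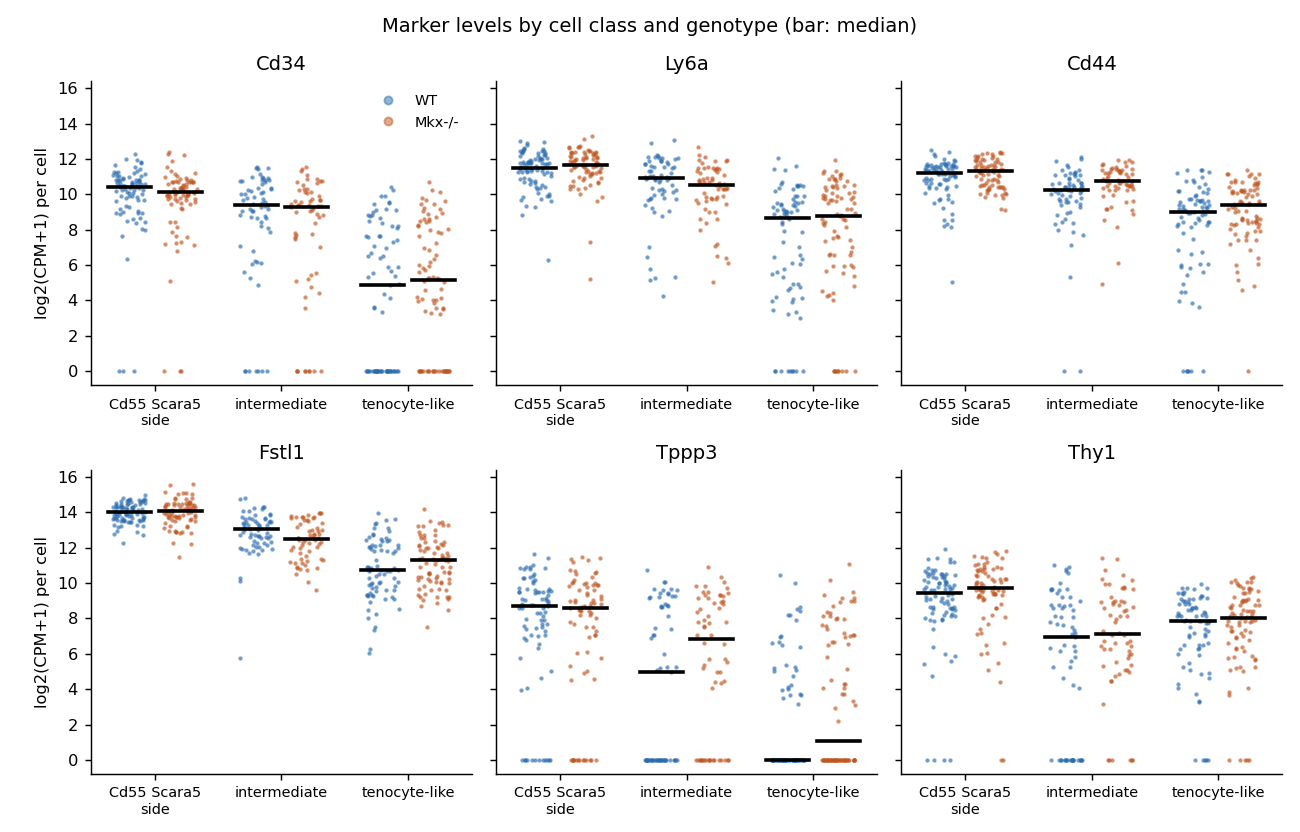
Level of 5 markers outside the score and of Thy1 in each cell, as log2(CPM+1), for the 3 classes and both genotypes (blue WT, orange Mkx-/-); each point is a cell and each black bar the median. For Cd34, Ly6a, Cd44, Fstl1, Tppp3 and Thy1 the medians of progenitor-like cells lie above those of both other classes, and cells at 0 for Tppp3 and Cd34 are most frequent among tenocyte-like cells.

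The genes that define tendon differentiation were at the opposite end. The transcription factor Scx, which directs the tendon fate, had 6 reads in all WT progenitor-like cells (1.37 CPM) and 7 in the Mkx-/- ones (1.80 CPM), against 92.95 and 67.4 CPM in tenocyte-like cells. Mkx itself had 6 reads in WT (1.37 CPM, 0.50 to 2.98) and 3 in Mkx-/- progenitor-like cells (0.77 CPM, 0.16 to 2.25). The targeted gene was therefore at the limit of detection in these cells in both genotypes, and its reads could not check their genotype labels, and which part of Mkx the mice lack is not given in the sources used here. In tenocyte-like cells the level of Mkx was 68.1 CPM (WT) and 28.9 CPM (Mkx-/-), lower in the direction of the label but above 0.

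Compared with the other tendon cells of the same genotype, most adventitial fibroblast genes stood higher and most tenocyte matrix genes lower in progenitor-like than in tenocyte-like cells (12 of 15 over 2-fold above and 13 of 14 over 2-fold below in both genotypes). Against intermediate cells fewer passed 2-fold: 2 of 15 adventitial genes above and 3 of 13 tenocyte matrix genes below. Of 9332 genes with at least 100 reads, 424 were over 2-fold higher than in intermediate cells in both genotypes, or 4.54%, and 320 were over 2-fold lower, or 3.43%. Against tenocyte-like cells 1524 of 10209 genes were over 2-fold higher, or 14.9%, and 496 were over 2-fold lower, or 4.86%. The median gene stood 0.62 (WT) and 0.42 (Mkx-/-) higher on the log2 scale in progenitor-like than in tenocyte-like cells, and differences against tenocyte-like cells are to be read relative to that shift. With TMM scaling, after which the median shift was 0.03 in WT and -0.02 in Mkx-/- cells, the counts were 682 higher and 791 lower. The classes were cut from these same cells, so no gene list below is a test of the class.

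A rule named the 15 genes that were read in at least 50% of progenitor-like cells and stood highest over both other classes in both genotypes. Among them were Adgrd1, an adhesion G protein-coupled receptor, Heg1, a mucin-like membrane protein, the surface glycoprotein Thy1, the secreted Olfml2a and Sema3c, the syndecan Sdc2, the fibril-associated collagen Col14a1 and the nuclear receptor Rorb. The others were Glipr2, Myadm, the noncoding Gm23935, Tmem100, Triobp, S100a16 and Basp1.

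Adgrd1 lay 1.495 (1.23 to 1.77) above intermediate cells in WT and 1.90 (1.63 to 2.18) above them in Mkx-/- cells on the log2 scale, and 3.10 and 3.81 above tenocyte-like cells. Thy1, which lies on chromosome 9 at 43851467 to 43856662 (NCBIM37), stood at 906 and 1170 CPM against 352 and 386 in intermediate and 295 and 380 in tenocyte-like cells, with log2 ratios from 1.36 to 1.62. Rorb stood at 282 and 204.3 CPM against 40.7 and 26.6 in tenocyte-like cells, yet was read in only 66.7% of WT and 56.4% of Mkx-/- progenitor-like cells. With the score cut moved to 0.5, Adgrd1, Olfml2a, Glipr2, Sdc2 and Gm23935 still lay above both other classes, and their smallest ratios were 0.47 to 0.85. The progenitor-like cells at or below 0.5 were then counted as intermediate, so the comparison class had changed as well.

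**Figure D3:**
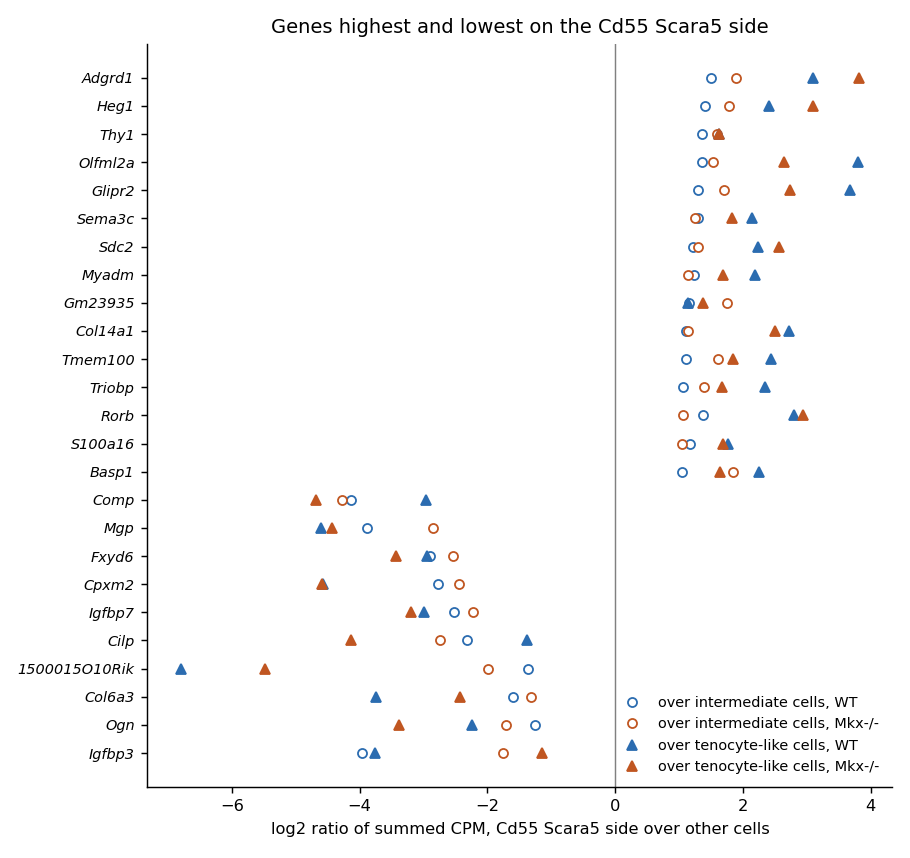
log2 ratio of the summed CPM of progenitor-like cells (Cd55 Scara5 side) to that of intermediate cells (open circles) and tenocyte-like cells (filled triangles), in WT (blue) and Mkx-/- (orange), for the 15 highest and 10 lowest genes under the naming rule. All 4 ratios lie above 1 for each of the 15 upper genes and below -1 for each of the 10 lower genes, for instance -4.13 to -2.96 for Comp in WT.

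Genes typical of adventitial fibroblasts, the cells of loose tissue around vessels and organs, were mostly higher in progenitor-like than in tenocyte-like cells. Their summed level did not set the class apart from intermediate cells, at 17871 against 18035 CPM in WT and 16660 against 16818 CPM in Mkx-/- cells. All 15 genes of that list had enough reads, and 12 of them were over 2-fold higher than in tenocyte-like cells in both genotypes, while 2 were over 2-fold higher than in intermediate cells. Pi16, a peptidase inhibitor that marks such fibroblasts, stood at 534 CPM (WT) and 418 CPM (Mkx-/-) against 345 and 246 in intermediate and 73.6 and 59.6 in tenocyte-like cells. The surface peptidase Dpp4 stood at 126.9 and 99.8 CPM against 56.9 and 16.9 in intermediate and 51.5 and 21.03 in tenocyte-like cells. Gsn, an actin-severing protein on this list, went the other way against intermediate cells, at 4219 and 4748 CPM against 7895 and 8792. Of the 8 sheath and paratenon genes, 7 had enough reads and 5 were over 2-fold above tenocyte-like cells, but Prg4, the lubricant lubricin, was lower than in intermediate cells at 3968 and 6262 CPM against 8552 and 10403.

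Elastic fibre genes lay on both sides. Of 18 such genes tested, 7 were over 2-fold above and 4 over 2-fold below tenocyte-like cells in both genotypes. Against intermediate cells 1 of 16 was above and 2 were below, with a median log2 difference of 0.40 in WT and -0.09 in Mkx-/- cells. Fibrillin-1 (Fbn1), the backbone of microfibrils, stood at 7507 and 7554 CPM against 3757 and 3058 in intermediate and 1007 and 1116 in tenocyte-like cells. The microfibril protein Mfap5 stood at 7874 and 5692 CPM against 884 and 1117 in tenocyte-like cells, and the crosslinking enzyme Loxl1 at 566 and 584 against 66.9 and 134.9. Lox, the related crosslinker, was on the other side, with 147.6 and 150.9 CPM against 1872 and 1133 in tenocyte-like cells. Fbn1 and Mfap5 were read in every progenitor-like cell, in WT from 9.29 over 12.8 to 14.2 and from 9.14 over 12.9 to 14.1 on the log2(CPM+1) scale.

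Tenocyte matrix genes were low. Of 14 with enough reads, 13 were over 2-fold below tenocyte-like cells in both genotypes and 0 were above, with a list median of -3.87 in WT and -4.34 in Mkx-/- cells, where the median over all genes tested was 0.62 and 0.42. Col1a1 stood at 7296 and 7677 CPM against 107594 and 78393 in tenocyte-like cells. The type III collagen gene Col3a1, abundant in loose connective tissue, was higher than in tenocyte-like cells, at 7738 and 7670 CPM against 1309 and 2355. Against intermediate cells the fibrillar collagens did not separate the classes, since 0 of 10 were over 2-fold apart in both genotypes.

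The 10 genes that stood lowest were Comp, Mgp, Fxyd6, Cpxm2, Igfbp7, Cilp, 1500015O10Rik, Col6a3, Ogn and Igfbp3. They include cartilage and mineral-binding matrix products: Comp and Cilp are proteins of cartilage matrix, Mgp inhibits calcification and Ogn is a small proteoglycan. Mgp stood at 103.7 and 207.4 CPM against 1524 and 1502 in intermediate and 2517 and 4471 in tenocyte-like cells. Comp stood at 11.4 and 13.3 CPM against 200 and 259 in intermediate and 88.6 and 343 in tenocyte-like cells. Sox9, the cartilage transcription factor, stood at 12.3 and 15.4 CPM, which lay below intermediate cells by log2 ratios of -3.01 and -1.76 and below tenocyte-like cells by ratios of -4.16 and -3.20 (WT and Mkx-/-).

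Signalling genes lay on both sides of the other classes. Wnt2, a secreted Wnt ligand, stood at 177.2 CPM in WT progenitor-like cells against 40.2 in intermediate and 5.3 in tenocyte-like cells, and at 59.02 CPM against 34.4 and 10.9 in Mkx-/- cells. Of 12 Wnt pathway genes tested, 3 were over 2-fold above and 2 over 2-fold below tenocyte-like cells in both genotypes, and 2 were above and 2 below intermediate cells. Of 21 TGF-beta and BMP pathway genes, 2 were above and 3 below tenocyte-like cells, and 0 above and 3 below intermediate cells. The receptor Tgfbr2 stood at 387 and 320 CPM against 91.7 and 117.8 in tenocyte-like cells. Of 18 growth factor genes, 4 were above and 4 below tenocyte-like cells, and 0 above and 4 below intermediate cells. Over all genes 14.9% stood above and 4.86% below tenocyte-like cells, and 4.54% above and 3.43% below intermediate cells. Igfbp5, which binds insulin-like growth factors, stood at 3380 and 2205 CPM against 1097 and 544 in tenocyte-like cells. The decoy chemokine receptor Ackr4 stood at 175.4 and 147.3 CPM against 17.6 and 24.8 in tenocyte-like cells, and the chemokine Ccl2 at 9397 and 9171 against 4246 and 3703. Of 16 chemokine and cytokine genes, 3 were above and 4 below tenocyte-like cells. Against intermediate cells 13 were tested, of which 1 was above and 2 were below.

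Within the class, cells differed from each other most in genes that were either high or unread. The 10 genes with the widest spread among those with a mean of at least 5 on the log2(CPM+1) scale were Cyb5a, Plekhf1, Bcap31, Sulf1, Scara3, Yars, Napa, Eif4h, Gm23935 and Smim7. Cyb5a, a cytochrome of the endoplasmic reticulum, had an SD of 4.18 in WT and 4.25 in Mkx-/- cells and was read in 67.9% and 65.4% of them. The sulfatase Sulf1, which trims heparan sulfate, stood at 395 and 345 CPM and was read in 71.4% and 69.2% of cells. By contrast the SD of Fstl1 was 0.55 and 0.75. The part of missed reads in this spread was not tested.

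Between genotypes, progenitor-like cells stayed within 2-fold in the markers outside the score and in the fibrillar collagens and elastic fibre genes with enough reads. Single genes of several kinds, other matrix genes among them, differed by more than 2-fold. The values that follow are log2 ratios of summed CPM, Mkx-/- over WT, with exact conditional binomial intervals. Over 7898 genes with at least 100 reads the median was -0.01 and the SD over genes 0.87. Of these, 669 were over 2-fold higher, or 8.47%, and 684 over 2-fold lower, or 8.66%, which is the background for every count below. In 72 of the 669 a single Mkx-/- cell held over 50% of the reads, and in 40 of the 684 a single WT cell did.

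The markers outside the score differed little. Cd34 had a ratio of -0.17 (-0.22 to -0.11), Ly6a 0.19 (0.16 to 0.22), Cd44 0.23 (0.19 to 0.27), Fstl1 0.06 (0.05 to 0.08) and Tppp3 0.12 (0.04 to 0.20). None of the 15 adventitial fibroblast genes was over 2-fold apart, 6 being higher and 9 lower, with a median of -0.21. The furthest was the hyaluronan synthase Has1 at -0.95 (-1.14 to -0.75), read at 155.1 CPM (WT) and 80.6 CPM (Mkx-/-), followed by Igfbp5 at -0.62. The surface proteins also stayed within 2-fold, 7 of 8 being higher, among them Thy1 at 0.37 and the growth factor receptor Pdgfra at 0.82 (142.6 and 252 CPM). Pdgfra was read in 48.8% of WT and 79.5% of Mkx-/- cells, and in 42.9% and 60.3% at 13000 reads.

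Structural matrix differed in some parts and not in others. Col1a1, Col1a2 and Col3a1 had ratios of 0.07, 0.05 and -0.01, and 0 of 8 fibrillar collagens and 0 of 14 elastic fibre genes passed 2-fold. Within the elastic fibre genes elastin itself (Eln) stood at 215.3 CPM (WT) and 122.7 CPM (Mkx-/-), a ratio of -0.81 (-0.97 to -0.65), while Fbn1 was at 0.01. Of 11 other collagens, 2 were over 2-fold higher: Col8a1, a short-chain network collagen, at 31.7 and 99.6 CPM (1.65, 1.37 to 1.94), and Col6a3, a chain of the microfibrillar type VI collagen, at 78.1 and 220 CPM (1.49, 1.31 to 1.68). Col8a1 was read in 28.6% of WT and 73.1% of Mkx-/- cells, or 19.05% and 48.7% at 13000 reads.

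The small leucine-rich proteoglycans, which bind collagen fibrils, had a median of 0.56 over 8 genes, with 6 higher and 2 lower. Ecm2 stood at 108.2 CPM (WT) and 274 CPM (Mkx-/-), a ratio of 1.34 (1.19 to 1.501), and was read in 36.9% and 71.8% of cells. Kera, keratocan, stood at 9.80 and 20.8 CPM (1.08, 0.53 to 1.65). Prelp at 0.69 and Aspn at 0.43 were higher by less than 2-fold, and Dcn was at -0.09. Lubricin (Prg4) was at 0.66, with 3968 and 6262 CPM. Among the remaining lists 0 genes passed 2-fold of 5 tendon transcription factors, of 4 complement genes, of 12 proteoglycan and hyaluronan genes and of 3 contractile genes.

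The tenocyte matrix genes as a list differed little between genotypes in progenitor-like cells. Over the 11 with at least 100 reads the median ratio was 0.07, with 9 higher and 2 lower, and 2 of them, Kera and Cilp2, were over 2-fold higher while 0 were over 2-fold lower. The level of a few such genes as a percent of that in tenocyte-like cells is given next as a description, for genes picked after their values were seen. Cilp2, a cartilage intermediate layer protein, stood at 1.85% of the tenocyte-like level in WT and 3.32% in Mkx-/- cells, or 4.33 and 23.9 CPM, a ratio of 2.46 (1.74 to 3.26). Kera stood at 1.36% and 2.39%, Col11a1 at 1.67% and 3.23%, and Mgp at 4.12% and 4.64%. Other genes went the opposite way, among them Comp at 12.9% and 3.89% and Ogn at 21.1% and 9.55%. A cut kept 18 genes with at least 100 CPM in tenocyte-like cells and under 5% of that level in progenitor-like cells of both genotypes. Of these, 14 had a higher percent in Mkx-/- cells, and the median percent was 1.8% in WT and 3.2% in Mkx-/- cells. Comp and Ogn lay outside that cut, and the same share over all genes was not computed. Tnmd and Fmod are left out of this description, because the rule set the tenocyte-like cells apart by their level. Whether such reads arose in the captured cell or came from other cells of the suspension was not tested.

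The osteochondrogenic and angiogenic genes that the study examined in these cells are shown for the class in the plot of 7 genes by cell class. The study chose both lists, so they are not independent evidence of a direction. Mgp, on chromosome 6 at 136820957 to 136824326, stood at 103.7 CPM in WT (94.3 to 113.6) and 207.4 CPM in Mkx-/- progenitor-like cells (193.3 to 222.2), a ratio of 1.0 (0.83 to 1.17). Ogn lies on chromosome 13 at 49703440 to 49719869 and stood at 50.8 and 82.9 CPM (0.71, 0.46 to 0.96). Comp stood at 11.4 and 13.3 CPM (0.23, -0.36 to 0.82), a difference not detectable at this depth. Spp1, osteopontin, had only 3 reads against 19, a ratio of 2.83 (1.07 to 5.23).

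Of the 3 osteochondrogenic genes with at least 100 reads all had a ratio above 0 and 1 passed 2-fold, and their median was 0.71. The order of the classes held for each of them, since every level in progenitor-like cells was below the intermediate and tenocyte-like level of its own genotype. Among cells with a score above 0.5 the ratio of Mgp was 2.28, that of Comp 2.04 and the median of the list 1.64, so these ratios depended on where the class was cut. A Mgp read was found in 69.05% of WT (58.02 to 78.7) and 94.9% of Mkx-/- progenitor-like cells (87.4 to 98.6), and in 44.05% and 67.9% at 13000 reads. In tenocyte-like cells the ratio was 0.83 for Mgp and 1.85 for Ogn.

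Of the 4 angiogenic genes of the study, Flt1 had under 100 reads in progenitor-like cells. The other 3 genes had a median of 0.00, with 0 past 2-fold. Hif1a, the oxygen-regulated transcription factor, stood at 190.9 and 190.7 CPM (0.00, -0.15 to 0.14) and Vegfa, the endothelial growth factor, at 101.8 and 98.03 CPM (-0.05, -0.26 to 0.15). Thbs1, thrombospondin-1, stood at 68.6 and 94.7 CPM (0.47, 0.24 to 0.69), while in tenocyte-like cells it stood at 75.8 and 175.1 CPM. Hif1a and Vegfa thus gave nearly the same level in both genotypes of progenitor-like cells.

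**Figure D4:**
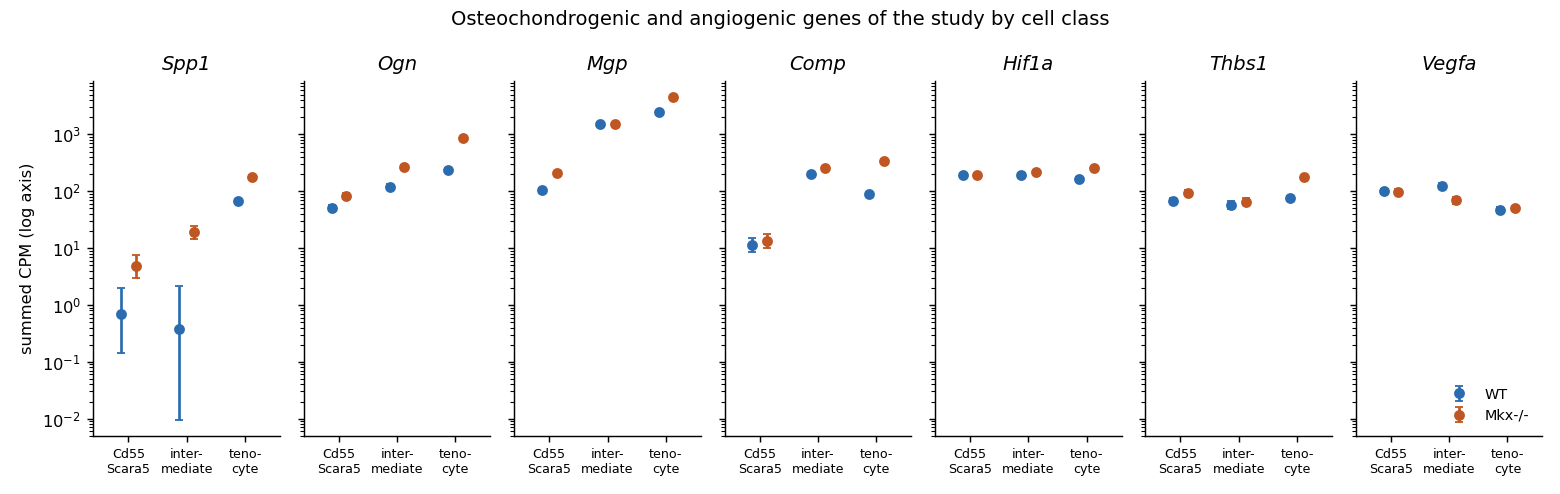
Summed CPM (log axis) of Spp1, Ogn, Mgp, Comp, Hif1a, Thbs1 and Vegfa in progenitor-like (Cd55 Scara5), intermediate and tenocyte-like cells, WT in blue and Mkx-/- in orange; points are sums over all cells of a class and bars exact Poisson intervals at 95%, which cover counting error only. Spp1, Ogn, Mgp and Comp lie lowest in the progenitor-like class apart from Spp1 in WT, where the intermediate cells had a single read, and Hif1a lies at 190.9 and 190.7 CPM.

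Of 21 bone and cartilage genes, 7 had enough reads in progenitor-like cells, with a median of 0.33. The bone genes Sp7, Alpl, Ibsp and Dmp1 and the cartilage genes Col10a1, Matn1 and Ihh had 0 reads in progenitor-like cells of both genotypes. For Runx2, a master factor of bone, a single read was found, in WT. The 1 gene past 2-fold was Pth1r, the receptor of parathyroid hormone, with 2 reads in 1 WT cell and reads in 14 of the 78 Mkx-/- cells. The level of Pth1r was 0.46 and 39.8 CPM, a ratio of 6.45 (4.57 to 9.51). In intermediate cells Pth1r was on the other side, at 11.4 and 0.99 CPM, and in tenocyte-like cells it stood at 6.66 and 24.4 CPM.

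Secreted signals differed gene by gene. Among 8 Wnt pathway genes, 1 was over 2-fold higher and 3 were over 2-fold lower. Wnt2 stood at 177.2 CPM (WT) and 59.02 CPM (Mkx-/-), a ratio of -1.59 (-1.80 to -1.37), with reads in 35 of 84 and 19 of 78 cells. The coreceptor Lrp6 was at -1.22 and the transcription factor Tcf7l2 at -1.21, each read in nearly equal shares of cells in both genotypes. The Wnt inhibitor Wif1 was at 1.28 (0.96 to 1.61), with 26.2 and 63.6 CPM, and stood at 755 and 879 CPM in tenocyte-like cells.

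Among 16 growth factor genes, 2 were over 2-fold higher and 2 over 2-fold lower. Insulin-like growth factor 2 (Igf2) stood at 84.1 CPM (WT) and 22.8 CPM (Mkx-/-) (-1.88, -2.23 to -1.54), and Igf1 at 342 and 595 CPM (0.80, 0.71 to 0.90). The platelet-derived growth factor Pdgfc stood at 86.8 and 22.1 CPM (-1.98, -2.33 to -1.64), read in 25 of 84 and 10 of 78 cells. Igfbp3 stood at 19.1 and 73.4 CPM (1.94, 1.58 to 2.31), where 1 cell held 26.2% and 26.6% of the reads, and Gas6 at 10.5 and 24.1 CPM (1.20). Of 16 TGF-beta and BMP pathway genes 0 passed 2-fold, although 12 were higher and 4 lower, among them Tgfbi at 0.86 and Bmp2 at 0.73.

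Chemokines were nearly level except Cxcl16, a membrane-bound chemokine, at 65.8 and 21.3 CPM (-1.63, -1.998 to -1.27), the 1 of 10 past 2-fold. Ccl2 was at -0.04 and Cxcl1 at 0.06. Of 19 immediate early and heat shock genes, which respond to dissociation of tissue, 0 passed 2-fold, and their summed level was 6503 and 6505 CPM. Among 14 proteases and inhibitors 1 passed, the stromelysin Mmp3 at 1.11, in which a single cell held 95.8% of the WT and 80.3% of the Mkx-/- reads.

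Of 10 cell cycle genes, at least 1 was read in 41 of 84 WT and 44 of 78 Mkx-/- cells, and Mki67 and Top2a in fewer. Mki67, a nuclear protein of cycling cells, was read in 10 of 84 WT cells, or 11.9% (5.86 to 20.8), and in 5 of 78 Mkx-/- cells, or 6.41% (2.11 to 14.3). The level of Mki67 was 67.9 and 16.4 CPM, but 1 cell held 46.3% of the WT and 59.4% of the Mkx-/- reads. Top2a, the topoisomerase of dividing cells, was read in 7 WT and 9 Mkx-/- cells, at 54.5 and 20.5 CPM, and its ratio of -1.41 became 0.11 at 13000 reads per cell. The intervals of the share of cells with Mki67 overlapped between genotypes.

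A second rule named the 12 highest and 12 lowest ratios among genes read in at least 20% of the progenitor-like cells of the genotype with more, and with the same sign in the sums, in the mean of single-cell CPM and after the cell with most reads was left out. The higher genes included Tspan15, Wdr19, Pbld2, Pwwp2b, Gm10036, Sirt1, Tmtc3, Gm11889, Zfp236, Polr2b and Mbp. The lower genes were Mettl10, Gm14567, Lamtor3, Adam33, Ankrd29, Uchl1, Nkiras1, Fbxo4, Rnf144a, Ascc2, Cd200 and Larp7. Of 4698 genes that met the conditions of this rule, 2343 were higher and 2355 lower.

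Tspan15, a tetraspanin that partners the sheddase Adam10, stood at 3.42 CPM (WT) and 42.3 CPM (Mkx-/-) (3.63, 2.87 to 4.50), with reads in 5 and 16 cells. Wdr19, a part of the ciliary transport machinery, stood at 6.61 and 51.6 CPM (2.96, 2.40 to 3.58). The deacetylase Sirt1 stood at 30.98 and 206.8 CPM, but 1 cell held 55.96% of the Mkx-/- reads and the ratio of 2.74 was 2.06 without the leading cells. Pbld2, which had no near copy, had reads in 5 of 84 WT and 41 of 78 Mkx-/- cells.

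On the lower side, Uchl1, a deubiquitinase best known from neurons, stood at 52.6 and 5.13 CPM (-3.36, -4.10 to -2.70), with reads in 23 of 84 and 3 of 78 cells. The metalloproteinase Adam33 stood at 51.7 and 4.11 CPM (-3.65, -4.49 to -2.92), and in intermediate cells at 10.2 and 20.8 CPM. The surface protein Cd200, which restrains myeloid cells, stood at 36.9 and 6.67 CPM (-2.47), and was lower in Mkx-/- cells of the other classes too, at -5.15 and -4.54.

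A few of the named genes differed by like amounts in every class of cell. Lamtor3, a scaffold of the MAPK and mTORC1 pathways, stood at 237 CPM in WT (222.8 to 252) and 15.9 CPM in Mkx-/- progenitor-like cells (12.2 to 20.4), and its ratio was -3.90 in progenitor-like, -3.83 in intermediate and -3.75 in tenocyte-like cells. Gm10036 stood at 55.4 and 375 CPM, with ratios of 2.76, 2.77 and 2.92, and Gm14567 had ratios of -4.35, -3.28 and -3.73. Lamtor3 and Gm10036 have a copy elsewhere in the genome at 98.7% and 99% identity, Larp7, Tmtc3 and Plekhf1 have copies at 90.9%, 95.7% and 94.8%, and Gm11889 and Gm14567 are annotated as pseudogenes, so their reads are uncertain in origin. Exons of Nkiras1, Pbld2, Polr2b, Sirt1, Uchl1, Cpxm2, Heg1, Igfbp7 and Yars overlap a gene on the opposite strand, and the strand used in counting is not given in the sources used here.

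**Figure D5:**
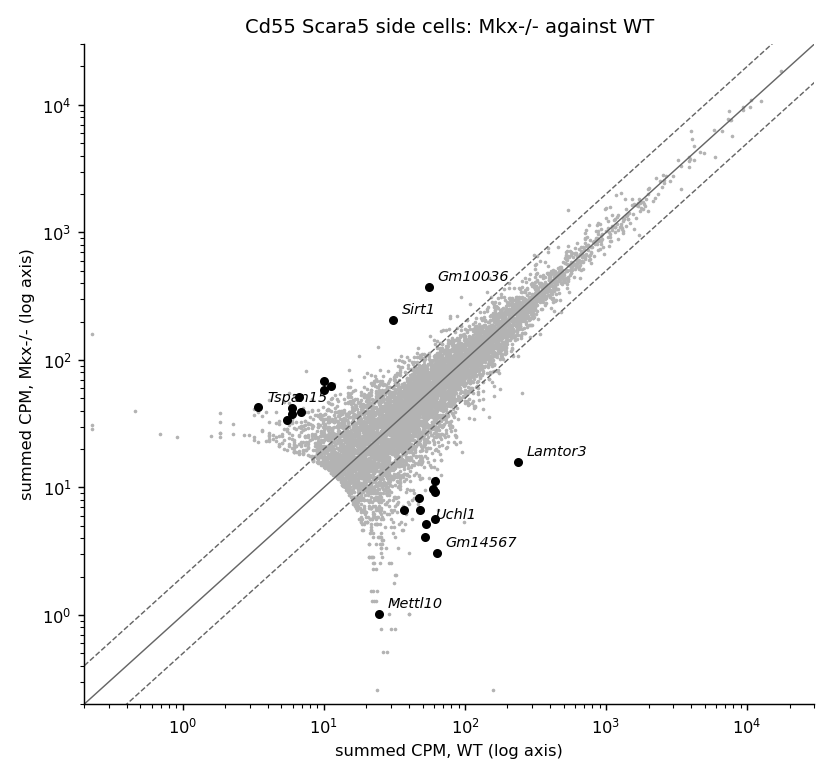
Summed CPM of progenitor-like cells, WT on the horizontal and Mkx-/- on the vertical axis (both log axes), for genes with at least 100 reads and a read in both genotypes; black points are 23 genes of the naming rule, the solid line marks equal levels and the dashed lines 2-fold. Most genes lie between the dashed lines (669 of 7898 lie above and 684 below them), and Gm10036 at 55.4 and 375 CPM and Lamtor3 at 237 and 15.9 CPM are the named genes farthest out at high level.

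Markers of other cell types were counted in the progenitor-like cells as well, to show what other cells the class could hold. Endothelial, muscle and red blood cell markers were nearly unread, with summed levels of 2.51 and 5.39 CPM, 3.42 and 4.36 CPM and 0.23 and 0.26 CPM in WT and Mkx-/- cells. Of 7 mural markers Cspg4 alone had at least 100 reads, at 75.4 and 22.8 CPM (-1.72), and Myh11, Notch3 and Kcnj8 had 0 reads. Epidermal markers summed to 71.1 and 49.3 CPM, nearly all from Krt10, with Krt5, Krt14 and Krt1 at 0. Adipocyte markers summed to 102.5 and 148.3 CPM, nearly all from Lpl, with Adipoq at 0.

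Of the Schwann cell markers, Mbp, which encodes a myelin protein and is among the highest named genes, stood at 11.2 and 62.4 CPM, and a single cell held 53.1% of its Mkx-/- reads. Sox10, which defines the lineage, had 1 and 3 reads, and Pmp2 had 0. The signal was not limited to 1 cell. At least 1 of the 6 markers was read in 22 of 84 WT and 48 of 78 Mkx-/- cells, and at least 2 in 2 and 20 cells. Whether such reads arose in the captured cell was not tested.

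Immune markers were lower in Mkx-/- cells. At least 1 of 8 was read in 15 WT and 12 Mkx-/- cells, and the summed level was 274 and 107.8 CPM, with Cd74 at 0 and Ptprc at 4 reads in WT and 1 in Mkx-/- cells. Lyz2 stood at 174.5 and 79.5 CPM and Cd68 at 32.6 and 2.05 CPM, read in 9 and 8 and in 5 and 2 cells. Without the 9 progenitor-like cells that held 3 or more markers of another type, 5 WT and 4 Mkx-/- cells, Mbp was at 0.73, Lyz2 at 3.33 and Fcer1g at 2.52, and the other 23 of the 24 named genes stayed past 2-fold in the same direction. The part of such cells in the remaining values was not tested.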

How the data were processed

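The authors deposited raw read counts for each gene in each cell. By their methods, reads were cleaned with AfterQC, trimmed with NGSQCToolkit, placed with bowtie2 on mm9 and counted with featureCounts, whereas the labels name mm10. Versions, annotation, strand and the treatment of reads with several positions are not given in the sources used here, so genes with near copies or overlapping partners are uncertain. All 37 mitochondrial symbols had 0 reads. No doublet caller was run, and how wells with several cells were treated is not given in the sources used here.

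Counts were summed over the cells of a class and genotype and divided by their total to give CPM. Sums had exact Poisson, ratios exact conditional binomial, shares Clopper-Pearson and differences of shares Newcombe intervals, at 95%. Where a sum was 0, a floor of 3 reads replaced it and the ratio was a bound; with neither sum above 3, none was computed. Thinning drew 13000 reads per cell. Python 3.11.15, scipy 1.17.1 and edgeR 4.0.16 (TMM factors only) were used. Copies of 72 of the 80 genes searched for were sought with minimap2 2.31 on NCBIM37 (at least 90% identity over 80% of a transcript), from which positions were taken with GENCODE M1. The steps were tested on simulated data, in which sums varied by Poisson counting error alone, so spread among cells was not covered. Of 353 symbols in 30 lists, 3 were not found in the table.

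Named genes were the 12 highest and 12 lowest ratios between genotypes (1 of the former is not reported here), the 15 highest and 10 lowest against other cells, the 10 widest spreads, and from each list those with the largest ratio or highest level, plus markers. The gene lists, the class and the rules were chosen with earlier results of these data known. Some genes of lists are also expressed in tendon, such as Acta2, Lpl and Krt10. Results were recomputed with other scalings, filters, cuts, and depths.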

Additional observations from a re-analysis of the deposited data

Results flagged for a closer look

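For 11 of the genes named or listed here the ratio of Mkx-/- to WT passed 2-fold in progenitor-like cells and passed it in the opposite direction in another class of cell. The difference between classes was not tested, since each genotype was 1 sample. Over all genes with enough reads in both classes such opposition was found in 1.68% of 6376 against intermediate and in 1.99% of 7179 against tenocyte-like cells. Among the named and listed genes with enough reads it was found in 7 against intermediate and 4 against tenocyte-like cells, or 3.11% and 1.70%. The values are log2 ratios, Mkx-/- over WT.

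Among Wnt pathway genes, Wnt2 was at -1.59 in progenitor-like and 1.05 in tenocyte-like cells, Lrp6 at -1.22 and 1.03 in the same classes, and Tcf7l2 at -1.21 in progenitor-like and 1.86 in intermediate cells. The chemokine Cxcl16 was at -1.63 and Ascc2, a subunit of a transcriptional coactivator complex, at -2.52 in progenitor-like cells, against 1.11 and 1.89 in tenocyte-like cells. The cell cycle genes Mki67 and Top2a were at -2.05 and -1.41 against 1.53 and 4.18 in intermediate cells, each with over 40% of its progenitor-like reads in 1 cell of a genotype. The immune markers Cd68, Fcer1g and Lyz2 were at -3.99, -2.33 and -1.13 against 1.51, 5.31 and 7.51 in intermediate cells. The Schwann cell marker Mbp was at 2.48, against -2.21 in intermediate cells. Without cells that held 3 markers of another type, Lyz2 was at 3.33 and Fcer1g at 2.52 in progenitor-like cells, and Mbp was within 2-fold. At 13000 reads per cell Top2a was at 0.11 in progenitor-like cells. The opposition of these genes therefore depended on the setting.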

How the results depend on the processing

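The share of progenitor-like cells differed between genotypes by -5.44 to 0.92 percentage points over the other cuts, all within the interval of the reported difference. With genes kept from 20 reads on, 15.14% of 12004 tested genes were over 2-fold higher and 15.90% lower in Mkx-/- progenitor-like cells, and at 13000 reads per cell 3.88% and 3.30% of the 3759 genes that still reached 100 reads. Among cells with a score above 0.5 the median of the osteochondrogenic genes was 1.64 and that of the angiogenic genes 0.18. With TMM scaling, added after the data were seen, 682 genes were over 2-fold higher and 791 lower than in tenocyte-like cells.

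Among single genes with a reported ratio past 2-fold, the direction was turned for 3. These were Top2a at 13000 reads (0.11) and Lyz2 (3.33) and Fcer1g (2.52) without cells that held 3 markers of another type, a setting also added later. Changes of sign in smaller ratios were not counted. Of 1143 recomputed genotype ratios of single genes 933 stayed within the interval of the reported value, and of 294 list medians 235 did. Part of the agreement of single genes was fixed in advance. The lower read filter changed which genes were tested and not their ratios, and a limit on genes per cell left out no progenitor-like cell. TMM factors were 1.004 in WT and 0.9964 in Mkx-/- progenitor-like cells, so that scaling could hardly move a ratio. Of the ratios against other cells all but 10 kept within 0.5 of the reported value. No paired analysis was possible because the result comes from no test. Depth limited genes with few reads, 1 sample per genotype limited every comparison, and without molecular identifiers reads are not independent molecules.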
